A study of Mus musculus with 6 samples.

Results

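The genes described here are the oogenesins Oog1, Oog2, Oog3 and Oog4, the oocyte-secreted protein genes Oosp1, Oosp2 and Oosp3, and 3 genes of the egg surface and cytoplasm, Astl, Rfpl4 and Cd9. They were chosen by name, and all 10 were found among the 37924 genes of the deposited table, 8 of them by symbol. Oosp2 and Oosp3 were found by Ensembl identifier, since the table lists them under the older symbols Plac1l and Gm97. All 10 passed the filter on low values, and 14934 genes were tested in all.

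Levels were measured by RNA sequencing in whole ovaries of mice at postnatal day 14 on a C57BL/6J/129S7/SvEvBrd background. In the 3 cKO libraries the mice carried 2 copies of a floxed allele together with Gdf9iCre, in which Cre is expressed from the Gdf9 promoter and so acts in oocytes. In the 3 control libraries they carried the same 2 copies and no Cre. Each library is a pool of 1 ovary from each of 3 mice, so its value is already an average over animals, and the SDs below are spreads between pools. Every value is in FPKM, fragment counts scaled by transcript length and by the library total, so that genes can be compared in level.

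Oogenesins are leucine-rich repeat proteins of the PRAME family, made in oocytes and early mouse embryos. OOSP proteins are secreted by the growing oocyte. Astl encodes ovastacin, a metalloprotease stored in cortical granules beneath the egg membrane, which after fertilisation cleaves the zona protein ZP2 and so blocks further sperm. Cd9 encodes a tetraspanin of the egg membrane that is needed for fusion with sperm, and it is also made in many other cells. Rfpl4 encodes a RING finger protein of oocytes.

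The upstream sequences of the oogenesins are shown because they resemble each other closely. A link between these sequences and the levels was not tested. Each line gives 100 bases before and 50 bases after the RefSeq start site (build GRCm38.p6, read on the gene's strand), with every match to CANNTG, the E-box that basic helix-loop-helix factors bind, in capitals.
Oog1 (chr12:87602565-87602714, plus strand): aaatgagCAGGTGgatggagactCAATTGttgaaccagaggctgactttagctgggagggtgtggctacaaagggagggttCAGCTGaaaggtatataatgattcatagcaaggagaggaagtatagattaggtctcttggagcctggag
Oog2 (chr4:144190617-144190766, plus strand): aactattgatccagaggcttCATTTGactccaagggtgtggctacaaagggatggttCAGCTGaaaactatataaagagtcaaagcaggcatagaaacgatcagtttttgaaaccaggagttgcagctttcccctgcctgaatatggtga
Oog3 (chr4:144162602-144162751, minus strand): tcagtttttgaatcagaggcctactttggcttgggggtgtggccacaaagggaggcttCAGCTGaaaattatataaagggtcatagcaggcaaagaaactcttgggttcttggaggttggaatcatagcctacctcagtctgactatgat
Oog4 (chr4:143450275-143450424, minus strand): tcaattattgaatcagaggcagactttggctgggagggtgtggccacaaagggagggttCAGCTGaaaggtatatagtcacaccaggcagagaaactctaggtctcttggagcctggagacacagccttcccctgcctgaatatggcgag
All 4 hold CAGCTG, followed 11 bases further on, from first letter to first letter, by TATATA. The first of these motifs begins at base -19 in Oog1, -43 in Oog2, -42 in Oog3 and -41 in Oog4, counted from the RefSeq start; in Oog1, the RefSeq start lies 23 bases upstream of the GENCODE start. This spacing was looked for after the sequences had been seen. Over both strands it was found in 9 of 32851 mouse promoters of the same length (0.0274%), namely those of the 4 oogenesins, Gm2042, Pramel23, Pramel26, Pramel32 and Gm39804. Both motifs read the same on either strand. CAGCTG alone was in 16.3% of those promoters and CANNTG in 72.3%. Over the full windows, from 250 bases before to 50 after the start, the 4 oogenesin promoters were 76.3% to 83.6% identical in pairs. A match of letters says nothing of which protein binds there.

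The sequences around the RefSeq starts of Rfpl4 and Oosp1 are shown in the same way, because both genes followed the same pattern across libraries in the results below. The RefSeq start lies 99 bases downstream of the GENCODE start in Oosp1 and 39 bases downstream of it in Rfpl4. Nearly all of the printed Oosp1 stretch thus lies within the GENCODE gene.
Rfpl4 (chr7:5116862-5117011, minus strand): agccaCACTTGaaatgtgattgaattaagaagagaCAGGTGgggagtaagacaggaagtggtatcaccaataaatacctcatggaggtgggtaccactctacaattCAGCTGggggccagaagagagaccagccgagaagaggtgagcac
Oosp1 (chr19:11691002-11691151, minus strand): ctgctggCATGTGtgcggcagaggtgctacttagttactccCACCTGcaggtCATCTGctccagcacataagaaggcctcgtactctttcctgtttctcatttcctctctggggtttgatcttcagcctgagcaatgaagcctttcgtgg
Oosp1 had 5 matches to CANNTG in its full window, Rfpl4 had 3 and Astl had 0. TAATTG, a form of the homeodomain element bound by the oocyte factor NOBOX, was searched on both strands and found in Oog3 and Oog4 of the 9 genes with a promoter entry, against 8% of all promoters. Oosp3 had no entry.

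Oog2, Oog3 and Oog4 lie on chromosome 4 (Oog4 at 143437164 to 143450324, Oog3 at 144157557 to 144162663 and Oog2 at 144190719 to 144196934, GENCODE M21 on GRCm38). Oog1 lies on chromosome 12, at 87602688 to 87608850. The 3 OOSP genes are neighbours on chromosome 19, between 11647279 and 11711874. Astl lies on chromosome 2, at 127338639 to 127357651, Rfpl4 on chromosome 7, at 5109787 to 5116950, and Cd9 on chromosome 6, at 125460266 to 125494791. Exons of Oosp3 overlap Gm19224 and those of Cd9 overlap Gm26728, both on the opposite strand. Fragments of these pairs cannot be told apart without strand. Neither Gm19224 nor Gm26728 was found by symbol in the deposited table.

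The oogenesins also share transcript sequence with other genes. Of the stretches of 50 bases in the longest Oog1 transcript, 88.6% occur in transcripts of other genes, and 85.3% in those of Gm2042 alone. For Oog2 the share was 45.2%, with Gm13084, another PRAME family gene, as the main partner, and for Oog3 it was 19.7%, mostly with the pseudogene Gm4350. For Oog4 it was 0.725%. The level of Oog1, and in part that of Oog2 and Oog3, is therefore uncertain, since a fragment of a shared stretch can come from either gene. Gm4350 and Gm10436, which holds 57.1% of the Oog1 stretches, were not found by symbol in the deposited table. Oosp1, Oosp2, Oosp3, Astl and Rfpl4 shared none.

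No member passed the test between cKO and control ovaries: 0 of 10 were higher and 0 of 10 lower by limma at an adjusted p below 0.05, where 2.24% of all tested genes were higher and 2.09% lower. At an unadjusted p below 0.05 the count was 1 of 10, Astl, where it was 3630 of the 14934 tested genes. In whole ovary, fewer oocytes and less RNA per oocyte cannot be told apart. The median log2 change over the 10 was -0.14, against 0.05 over all tested genes. The groups did not overlap for Astl, which was higher in cKO, and for Oog2, which was lower in cKO by a narrow margin. Over all tested genes, cKO lay wholly above control for 18.0% and wholly below it for 12.0%.

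**Figure D1:**
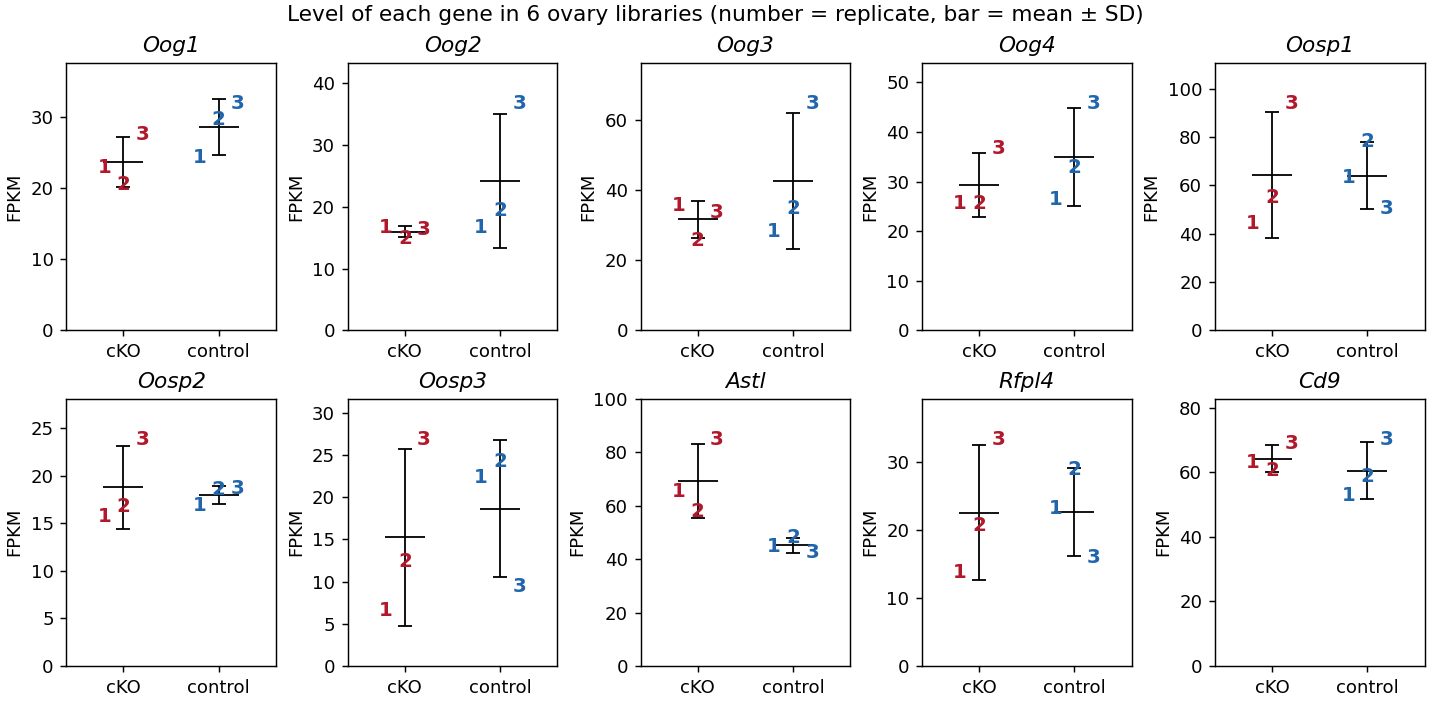
FPKM (linear axis from 0) of the 10 genes in each library, cKO on the left and control on the right of each panel; numerals are the replicates and bars the mean ± SD of 3 libraries. Astl is at 57.7 to 84.8 FPKM in cKO and 42.6 to 48.1 FPKM in control, while Oosp3 and Rfpl4 spread widely within both groups.

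Astl had the largest difference of the 10. It measured 65.4, 57.7 and 84.8 FPKM in cKO 1 to 3, against 44.8, 48.1 and 42.6 FPKM in control 1 to 3. Every cKO library was above every control library, and the control libraries lay close together. The log2 change was 0.59 with a standard error of 0.14 and a 95% interval of 0.27 to 0.91, and limma's adjusted p was 0.0591, just short of the threshold. The call depended on the settings: the adjusted p was 0.0241 with array weights, 0.0322 with quantile normalisation, 0.0334 with libraries centred on reference genes, 0.0457 with robust eBayes and 0.0479 with a mean FPKM of at least 2. It was 0.135 with no filter on low values and 0.521 with libraries centred on oocyte markers. In the centred fit the standard error of 0.23 was pooled over genes of like level. Astl's own SDs relative to these markers were 0.08 in cKO and 0.11 in control. Leaving out 1 library gave 0.0673 to 0.193. The log2 change was positive in all of these fits.

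Of 5 tested genes of the zona and its cleavage, 2 rose and none fell. Zp2, whose protein ovastacin cleaves, rose to 475, 371 and 510 FPKM in cKO 1 to 3, against 222, 244 and 257 FPKM in control 1 to 3 (adjusted p 0.0204, limma). Zp3 also rose, by 0.78 on the log2 scale, with an adjusted p of 0.0454. Both calls were lost with libraries centred on oocyte markers, at 0.108 for Zp2 and 0.245 for Zp3. The call of Zp2 was also lost without cKO 1, control 1 or control 2, at 0.0982 to 0.120, and that of Zp3 without any 1 library other than cKO 3, at 0.0583 to 0.174. Zp1 had a log2 change of 0.70 and an adjusted p of 0.0716. Fetub, whose product fetuin-B inhibits ovastacin, measured 11.2 ± 2.35 FPKM in cKO and 9.43 ± 1.05 FPKM in control (SD, n = 3; limma adjusted p 0.437). Astl stood at 13.8%, 15.6% and 16.6% of the Zp2 level in cKO 1 to 3, against 20.2%, 19.8% and 16.6% in control 1 to 3. In its pattern over the 6 libraries, Astl was most like Zp3 (Pearson r 0.997), Zp1 (0.996), Sfpi1 (0.991), Use1 (0.990) and Tgif2 (0.989), on log2(FPKM + 1). This likeness was added after the values were seen, and the libraries share the group difference, so the correlations are descriptions.

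Of 9 tested genes for the release of cortical granules, none passed, and 7 had a positive log2 change. Myh9, a non-muscle myosin gene, had a log2 change of 0.44 and an adjusted p of 0.0615, and Nsf, which encodes an ATPase of membrane fusion, had 0.39 and 0.0839. The 2 with the highest mean level, Napa and Stx4a, which act with Nsf and in fusion at the membrane, had log2 changes of -0.03 and 0.11. These genes are expressed in many cell types. Myh9 and Nsf were named after their values were seen.

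The 4 oogenesins had lower means in cKO, and none passed; for Oog2, Oog3 and Oog4 most of the difference rested on control 3. Oog2 measured 16.6, 14.9 and 16.3 FPKM in cKO 1 to 3, against 16.6, 19.3 and 36.6 FPKM in control 1 to 3. Control 3 stood well above all other libraries, and cKO 1 and control 1 differed by only 0.017 FPKM. The log2 change was -0.49 with a standard error of 0.26 (limma adjusted p 0.288), and it was -0.16 without control 3.

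Oog3 measured 35.6, 25.7 and 33.6 FPKM in cKO 1 to 3, against 28.1, 34.7 and 64.5 FPKM in control 1 to 3. Oog4 measured 25.7, 25.6 and 36.7 FPKM in cKO 1 to 3, against 26.3, 32.9 and 45.7 FPKM in control 1 to 3. For both genes control 3 was the highest library and the groups overlapped. The log2 changes were -0.34 for Oog3 and -0.23 for Oog4, with adjusted p-values of 0.506 and 0.551 (limma). Without control 3 they were 0.00 and -0.02.

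Oog1 measured 22.9, 20.6 and 27.6 FPKM in cKO 1 to 3, against 24.2, 29.7 and 31.8 FPKM in control 1 to 3. The groups overlapped, as cKO 3 stood above control 1, and the log2 change was -0.26 with a standard error of 0.14 (limma adjusted p 0.288). Gm2042, with which Oog1 shares most of its sequence, measured 26.2, 23.1 and 35.3 FPKM in cKO 1 to 3, against 25.8, 32.9 and 34.8 FPKM in control 1 to 3. In both genes cKO 2 was the lowest library, and the groups overlapped. Control 3 also had the highest level of the adipose markers, which summed to 43.0 to 52.1 FPKM in cKO and to 46.9 to 77.2 FPKM in control, with 6 of 7 tested and no marker at 0 throughout; the part of this tissue in the oogenesin levels was not tested.

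Of 40 further PRAME family genes listed, 34 were found, 15 were tested and none passed, with 7 positive and 8 negative log2 changes. The median was -0.04 and the range ran from -0.45 to 0.39. Gm13084 and Gm13023 had the highest mean levels. Gm13084 measured 57.8, 44.1 and 62.7 FPKM in cKO 1 to 3, against 41.6, 47.9 and 67.4 FPKM in control 1 to 3. Gm13023 measured 34.1, 31.5 and 39.3 FPKM in cKO 1 to 3, against 33.2, 40.2 and 61.0 FPKM in control 1 to 3, so that control 3 was again the highest. Across the 6 libraries Gm13023 was the gene most like the mean pattern of Oog2, Oog3 and Oog4 (Pearson r 0.998), a comparison added after the values were seen. It also shares some sequence with Oog1 and Oog4.

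**Figure D2:**
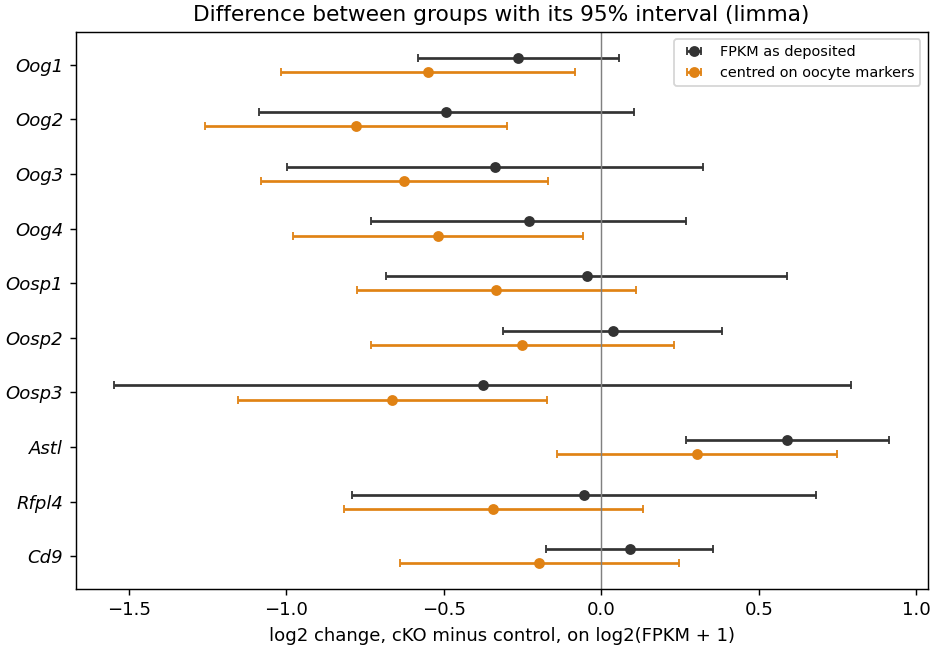
Log2 change of each gene (cKO minus control, on log2(FPKM + 1)) with its 95% interval from limma. Values are from FPKM as deposited and after centring the libraries on the mean of 23 oocyte marker entries. Standard errors after centring were pooled over genes of like level. As deposited, the interval of Astl (0.27 to 0.91) is the only one clear of 0; after centring it covers 0, and the oogenesins and Oosp3 lie below 0, of which only Oog2 passed after adjustment.

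The OOSP genes differed more within groups than between them. Oosp3 measured 6.51, 12.4 and 26.8 FPKM in cKO 1 to 3, against 22.3, 24.2 and 9.38 FPKM in control 1 to 3. Its levels spanned 4.12-fold within cKO, the widest span of the 10 genes in that group. The log2 change of -0.38 had a standard error of 0.50 and a 95% interval of -1.55 to 0.79, so that neither a fall nor a rise of that size is resolved (limma adjusted p 0.690). Without cKO 1 the log2 change was 0.08.

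Oosp1 measured 44.1, 54.9 and 93.8 FPKM in cKO 1 to 3, against 63.3, 78.2 and 50.6 FPKM in control 1 to 3. The group means were 64.3 ± 26.1 FPKM in cKO and 64.0 ± 13.8 FPKM in control (SD, n = 3), and the log2 change was -0.05 with a 95% interval of -0.68 to 0.59. Oosp2 measured 15.7, 16.8 and 23.8 FPKM in cKO 1 to 3, against 16.9, 18.5 and 18.6 FPKM in control 1 to 3. Its 3 control libraries lay close together, and the log2 change was 0.04 with a 95% interval of -0.31 to 0.38. Oosp2 was the steadiest of the 3 neighbours in control, and Oosp3 the least steady in both groups. Relative to Oosp2 in the same library, the Oosp3 level was 0.415, 0.737 and 1.13 in cKO 1 to 3, against 1.32, 1.31 and 0.505 in control 1 to 3.

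Plac1, a gene related to the OOSP family and best known from the placenta, was the member of the oocyte-secreted list that fell. It was low in all libraries, at 0.630, 0.201 and 0.546 FPKM in cKO 1 to 3, against 1.86, 1.49 and 2.34 FPKM in control 1 to 3. The groups did not overlap, and the log2 change was -0.99 with a standard error of 0.18 (limma adjusted p 0.0328). The call was lost without any 1 library other than control 3, at 0.0562 to 0.135. The other 3 of the list, Gdf9, Bmp15 and Fgf8, did not pass.

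Rfpl4 measured 13.8, 20.6 and 33.3 FPKM in cKO 1 to 3, against 23.1, 28.9 and 16.0 FPKM in control 1 to 3. The groups overlapped fully, and the log2 change was -0.06 with a 95% interval of -0.79 to 0.68 (limma adjusted p 0.933). Oosp1, Oosp3 and Rfpl4 ranked the 6 libraries in the same order. It ran from cKO 1, the lowest, through control 3, cKO 2, control 1 and control 2 to cKO 3, the highest. That order, noticed after the values were seen, was held by 18 of the 14934 tested genes, these 3 included, and the orders of the other members by 28 to 49 genes each, so its rarity says nothing of these 3. On the mean pattern of the 3, the closest other genes were Slc45a3 (Pearson r 0.990), Rassf3 (0.988) and Ildr1 (0.985), over 6 libraries and chosen after the values were seen.

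**Figure D3:**
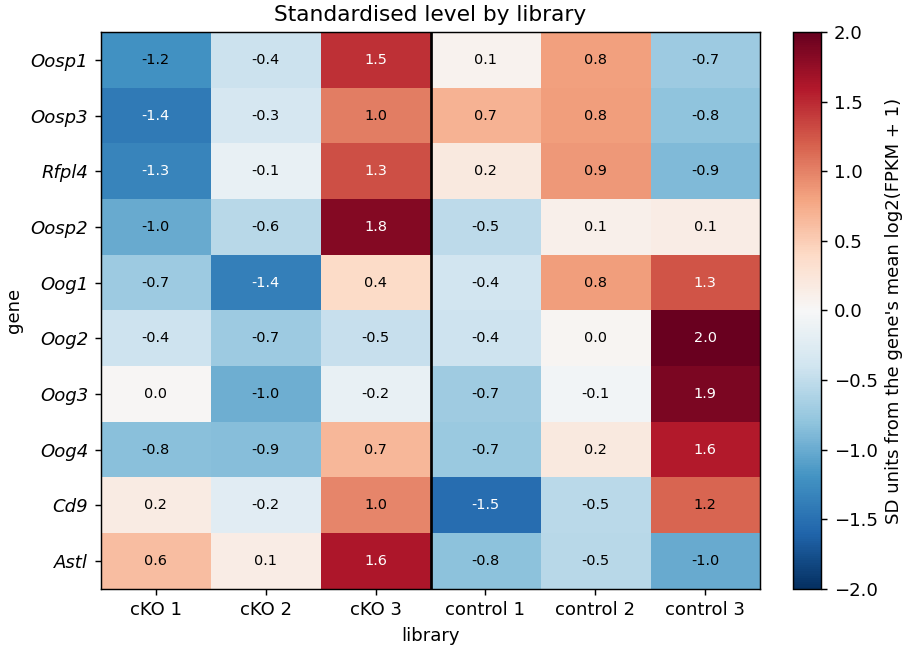
Each gene's level in each library, as SD units from the gene's own mean of log2(FPKM + 1), cKO libraries to the left of the line and control libraries to the right. Oosp1, Oosp2, Oosp3 and Rfpl4 are lowest in cKO 1 and highest in cKO 3. The oogenesins and Cd9 stand highest in control 3. Astl alone has all cKO libraries above all control libraries.

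Low levels in both cKO 1 and control 3 were also seen in other oocyte genes. Bmp15, an oocyte growth factor gene, measured 14.6, 30.9 and 48.6 FPKM in cKO 1 to 3, against 51.8, 60.4 and 29.5 FPKM in control 1 to 3. Of the 23 oocyte marker entries, Zar1, Btg4 and Bcl2l10 had their lowest levels in these 2 libraries. Over all tested genes, 3.04% did.

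Cd9 measured 63.2, 60.6 and 68.8 FPKM in cKO 1 to 3, against 52.8, 58.6 and 70.2 FPKM in control 1 to 3. The groups overlapped, and the log2 change was 0.09 with a 95% interval of -0.17 to 0.36 (limma adjusted p 0.667). Since Cd9 is not limited to oocytes, its level in whole ovary sums over several cell types. Among 10 tested genes for partners of Cd9 at the egg membrane and other tetraspanins, 1 passed. Itga6, the integrin alpha 6 gene, rose to 191, 154 and 143 FPKM in cKO 1 to 3, against 78.1, 79.1 and 116 FPKM in control 1 to 3 (log2 change 0.85, limma adjusted p 0.0436; lost with libraries centred on oocyte markers, at 0.165, and without any 1 library other than control 3, at 0.0660 to 0.185). Itga6 is also made in granulosa and other ovarian cells. The gene of Juno, the egg's receptor for sperm, listed as Folr4, measured 18.8 ± 3.33 FPKM in cKO and 17.4 ± 2.43 FPKM in control (SD, n = 3; limma adjusted p 0.725).

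In level, Astl, Oosp1 and Cd9 stood highest in both groups, with means of 69.3, 64.3 and 64.2 FPKM in cKO and 45.1, 64.0 and 60.6 FPKM in control. Oog3 and Oog4 came next, with means of 31.6 and 29.3 FPKM in cKO and 42.5 and 34.9 FPKM in control. Oog1, Rfpl4, Oosp2, Oog2 and Oosp3 lay between 15.2 and 23.7 FPKM in cKO and between 18.0 and 28.6 FPKM in control. In each group, neighbours in this order differed by less than the larger of their SDs, except Cd9 and Oog3 in cKO and Cd9 and Astl in control. At an estimated depth of 22.5 to 24.9 M fragments per library in cKO and 19.6 to 22.7 M in control, the lowest value, Oosp3 in cKO 1, rests on about 99.7 fragments, and Astl on about 1857 to 4708 per library.

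The 23 oocyte marker entries hold Gm1965 under separate Ensembl identifiers, and the listed Pabpn1l was not found. They had a mean log2 level of 5.52, 5.27 and 5.97 in cKO 1 to 3, against 5.20, 5.36 and 5.34 in control 1 to 3. They summed to 1758 to 2849 FPKM in cKO and to 1477 to 1636 FPKM in control, with none at 0. Padi6 and Khdc3, genes of the complex beneath the egg membrane, rose among them, and none fell; with libraries centred on these markers both calls were lost, at 0.0588 for Padi6 and 0.445 for Khdc3 (limma adjusted p). The call of Khdc3 was also lost without any 1 library, at 0.0583 to 0.178, and that of Padi6 without any but cKO 2, at 0.0543 to 0.170. Granulosa markers summed to 2277 to 2707 FPKM in cKO and to 3508 to 4502 FPKM in control, with none of 14 at 0. Of these, 6 fell and none rose, led by Fst, Gja1 and Inhbb. Each of those named lost its call without cKO 1, cKO 2, control 1 or control 2. The log2 change was negative for 10 of the 14 granulosa markers and positive for 4. Among the 4 were Foxl2 and Kitl, at 0.43 and 0.73 (limma adjusted p 0.128 and 0.0854). Of the other lists, 2 of 10 stroma markers rose, Tcf21 and Pdgfra, and 1 of 7 immune markers, Cpa3. Of 6 tested adipose markers Plin1 rose, while the other 5 had negative log2 changes that did not pass and the list's median was -0.52. With libraries centred on oocyte markers the calls were lost for Tcf21, Pdgfra and Plin1, at 0.568, 0.250 and 0.216 (limma adjusted p). The call of Cpa3 was lost with quantile normalisation, at 0.0510, with centring on reference genes, at 0.0526, and with robust eBayes, at 0.0572. The call of Tcf21 was lost without any 1 library, that of Pdgfra without any but cKO 3, and those of Cpa3 and Plin1 without any but control 3. None of 8 theca, 8 endothelial, 9 surface epithelium, 5 oviduct or 15 reference genes passed. The part of these cell types in the levels of the 10 genes was not tested.

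Set against the mean of the oocyte markers in the same library, on the log2 scale, Astl stood at 0.53, 0.61 and 0.46 in cKO 1 to 3, against 0.32, 0.26 and 0.10 in control 1 to 3. The groups did not overlap, with cKO higher by 0.30. Oog2 stood at -1.38, -1.27 and -1.85 in cKO 1 to 3, against -1.06, -1.01 and -0.11 in control 1 to 3. Here cKO was lower in all 3 libraries, by 0.78 on average. Oog1, Oog4 and Oosp2 were likewise lower in all 3 cKO libraries than in any control library, by 0.55, 0.52 and 0.25, while Oog3, Oosp1, Oosp3, Rfpl4 and Cd9 overlapped. The subtraction lowers the difference between group means, cKO minus control, by 0.29 for every gene. The marker mean was 5.27 in cKO 2, below control 2 at 5.36 and control 3 at 5.34. Genes in cKO 2 were thus not moved down against those libraries. A two-sided exact permutation test on the marker mean gave 0.3. On this scale cKO lay wholly below control for 24.4% of all tested genes and wholly above it for 0.583%. The count of 4 lower members is therefore not read as a result about them. With oocyte-secreted and zona genes as the base, 2 members were lower and 1 higher without overlap, where 15.5% of all tested genes were lower and 0.944% higher. For each of the 5 genes that did not overlap an exact permutation test, two-sided, gave 0.1, and 3 pools against 3 allow no lower p. A fit over all genes with libraries centred on these markers moved the median log2 change of all genes to -0.24. In it Oog2 fell (adjusted p 0.0406, limma) and no other member passed, where 3.25% of all tested genes were lower and 0.529% higher. Standard errors in that fit were pooled over genes of like level, at 0.24 for Oog2. The call of Oog2 therefore does not measure its own spread, with SDs of 0.31 in cKO and 0.54 in control on this scale, where control 3 stood far above the other controls.

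Ratios of 2 members within a library do not depend on how libraries are scaled. The ratio of Astl to Oog1 was 2.85, 2.81 and 3.08 in cKO 1 to 3, against 1.85, 1.62 and 1.34 in control 1 to 3. The ratio of Astl to Oog4 was 2.55, 2.26 and 2.31 in cKO 1 to 3, against 1.70, 1.46 and 0.932 in control 1 to 3. In both, every cKO library was above every control library, as it was for Astl over Oog2 and Astl over Oog3. These ratios were chosen after the levels were seen, with the member that was highest in cKO over members with lower means there, so the separation follows from that choice and is given as a description, with no test.

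**Figure D4:**
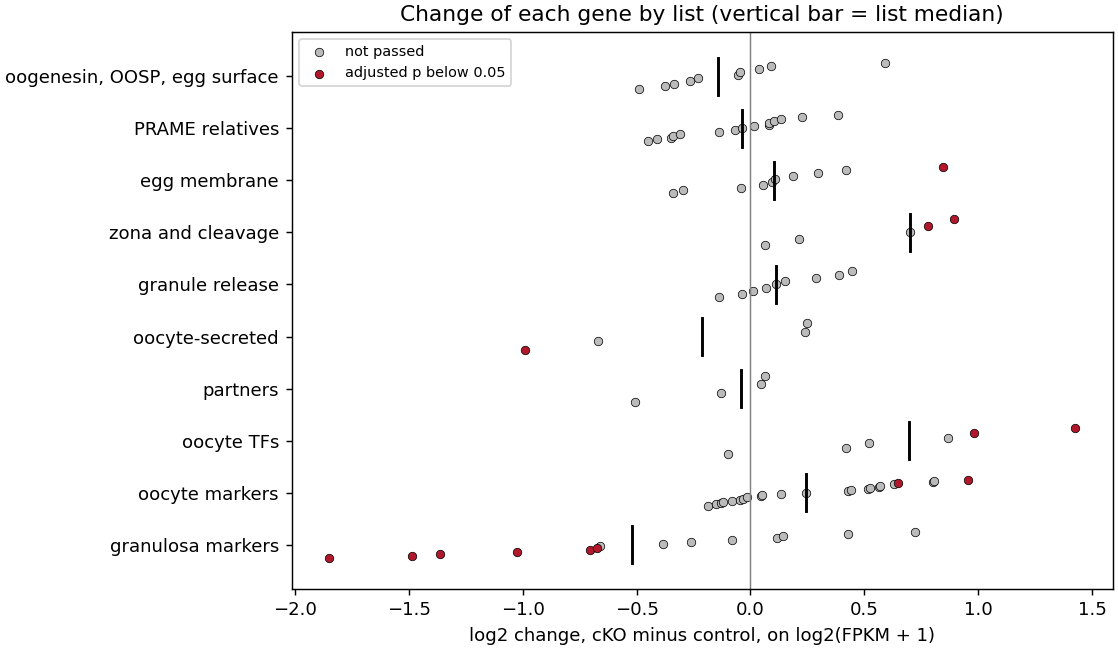
Log2 change of each tested gene (cKO minus control, on log2(FPKM + 1)), 1 row of points per list, with the median as a vertical bar and genes at an adjusted p below 0.05 by limma in red. The 10 genes described here have a median of -0.14 and no red point, while the zona list has its median at 0.70 and the granulosa list at -0.52.

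Genes of oocyte transcription factors and of binding partners are set beside the members for comparison. Any action of their products on the members was not tested. Of 6 tested oocyte transcription factor genes, 2 rose, Sohlh1 and Figla, which encode basic helix-loop-helix factors of early oocytes. Their log2 changes were 1.43 and 0.98 (limma adjusted p 0.0104 and 0.0305). Both calls were lost without cKO 1, control 1 or control 2 and, at 0.0579 and 0.0927, with no filter on low values. That of Figla was also lost without cKO 2 or cKO 3 and, at 0.133, with libraries centred on oocyte markers. Nobox, the gene of an oocyte homeobox factor, measured 65.6, 40.2 and 53.6 FPKM in cKO 1 to 3, against 28.5, 30.5 and 53.5 FPKM in control 1 to 3 (limma adjusted p 0.269). Of 4 tested genes whose products bind oogenesin 1 or RFPL4, none passed; the cyclin gene Ccnb1 had a log2 change of -0.51 and an adjusted p of 0.0741 and was named after its values were seen, while Ubb and Psmb1, with the highest mean levels, had 0.05 and -0.13.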

How the data were processed

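Each of the 6 libraries was 1 pool of ovaries, grouped by the genotype label (3 cKO, 3 control); library numbers were given in accession order and pair nothing. The labels do not say that pools share no other source, so p-values measure the spread between these pools. The sample titles carry the numbers 43446, 43447 and 43451 for control 1 to 3 and 43455, 43653 and 43661 for cKO 1 to 3. All carry lane number 6. What the title numbers stand for is not given, and any effect tied to them was not tested. The authors deposited FPKM per gene and library. Per the submitters' processing notes, TopHat2 2.0, Cufflinks 2.0 and mm10 were used, without stating for which step; of the gene annotation, strand and library scaling, nothing is given in the sources used here. FPKM divides by the library total, so abundant transcripts lower all others.

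The comparison was fitted with limma 3.58.1 in R 4.3.3 (eBayes with a trend) on log2(FPKM + 1) over the 14934 genes with a mean FPKM of at least 0.5. P-values were adjusted by Benjamini-Hochberg over all of them, and rose and fell mark genes with an adjusted p below 0.05. With libraries centred on oocyte markers, limma pooled the variance fully over genes of like level. Calls gained or lost in that fit therefore do not rest on each gene's own spread. The procedure was also run on simulated data, with independent noise for each gene and library. Shifts shared by the genes of a library were not simulated, so that run does not cover them. Changes on log2(FPKM + 1) understate those of low genes. Depth was estimated by reading FPKM values below 0.15, in genes with 1 transcript and at least 1500 exonic bases less 150 for the fragment, as 1 fragment, and covers counting error only. Fragments per gene use the longest coding transcript.

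The members and lists were chosen with earlier results of these data known. The naming rule gave all members, up to 3 passing genes of each list by smallest p (or the 2 highest in level where none passed; lists of other cell types are then given by counts), and the 5 genes most like the mean pattern of the 9 members other than Cd9. Coordinates and transcripts are from GENCODE M21, in which 14740 of the tested genes were found, and promoters are from RefSeq GRCm38.p6. Sequences were aligned with Biopython 1.88. The name and values of the floxed gene are not reported here.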

Additional observations from a re-analysis of the deposited data

How the results depend on the processing

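Precision was limited by 3 pools per group. The lowest estimated fragment number, about 99.7, was that of Oosp3 in cKO 1, and its part in the spread of Oosp3 was not tested. No paired analysis was possible because replicate numbers are absent from the labels.

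Astl was the 1 member called higher when the low-value filter was set at 2 FPKM, and with quantile normalisation, centring on reference genes, array weights or robust eBayes. Oog2 was the 1 called lower with centring on oocyte markers, a fit whose standard errors were pooled over genes of like level. With 1 library left out, 0 members were called in either direction. Astl, Oog1, Oog2 and Oog4 kept their direction in all fits. The log2 change of Oosp2 was -0.029 centred on the median, -0.25 centred on oocyte markers, -0.11 with control 3 and cKO 3 left out and -0.18 for cKO 1 alone against the 3 controls. That of Cd9 was -0.20 centred on oocyte markers. With 1 library left out, the log2 change ran from -0.14 to 0.15 for Oosp2, -0.35 to 0.18 for Oosp1, -0.87 to 0.078 for Oosp3, -0.58 to 0.0040 for Oog3, -0.0012 to 0.20 for Cd9 and -0.37 to 0.24 for Rfpl4.

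Over all genes, 2.24% were higher and 2.09% lower; with no filter on low values the shares were 0.0168% and 0.101%, centred on oocyte markers 0.529% and 3.25%, and with array weights 6.97% and 4.98%. Centred on the median, 1.70% were higher and 3.86% lower. With no filter on low values, calls were lost for Zp2, Zp3, Itga6, Plac1, Sohlh1, Figla, Padi6, Khdc3, Gja1 and Inhbb. Their adjusted p-values were 0.0579 to 0.118 (limma). With control 3 and cKO 3 left out 1.37% were higher, and for cKO 1 alone, assumed to vary like the controls, 0.147% were higher and 0.0067% lower. With 1 library left out, 0% to 2.06% were higher and 0.0134% to 2.36% lower; without control 1, control 2 or cKO 1 at most 4 genes were called in a direction, without cKO 2 40 higher and 38 lower, and without cKO 3 209 higher and 176 lower. Relative to oocyte markers, 4 members were lower without overlap, where 24.4% of all tested genes were. With oocyte-secreted and zona genes as the base it was 2 members, where 15.5% of all tested genes were lower. With 1 library left out it was 4 to 7 members, where 24.6% to 50.6% of all tested genes were lower without overlap. The cause of these shifts was not tested.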

Other observations

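The genes closest to the mean pattern of the 9 members other than Cd9 over the 6 libraries were Grid1 (Pearson r 0.991), Dusp7 (0.987), Rnf11 (0.986), Aspm (0.985) and Ccr2 (0.978); none of these 5 passed the test between groups.

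Some low PRAME relatives were highest in the libraries where Oosp3 was lowest. Pramef17 measured 5.01, 1.77 and 0.903 FPKM in cKO 1 to 3, against 0.677, 0.464 and 4.79 FPKM in control 1 to 3, and Gm13128 measured 1.35, 0.405 and 0.176 FPKM in cKO 1 to 3, against 0.208, 0.204 and 1.26 FPKM in control 1 to 3. Both were highest in cKO 1 and control 3, and so was AA792892. Among the 15 tested PRAME relatives 3 had this pattern, against 6.97% of all tested genes. Relatives below the filter on low values, some of which had it too, were not counted. Sequence shared among these relatives was not measured. C87499, from the same family, went the other way, at 5.23, 8.97 and 14.9 FPKM in cKO 1 to 3, against 12.3, 18.2 and 8.04 FPKM in control 1 to 3. These genes were named after their values were seen.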
